A study of Mus musculus with 6 samples.

Results

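The genes of the proteasome and of the immunoproteasome were described in 2 kinds of cultured mouse CD8+ T cells. The members were all probe sets whose single gene symbol begins with Psma, Psmb, Psmc, Psmd, Psme, Psmf or Psmg, or is Pomp, and they came to 86 of 36899 probe sets and 50 of 15964 named genes. Of these genes 44 are constitutive subunits or accessory factors. Another 4, namely Psmb8, Psmb9, Psmb10 and Psme1, stand apart as inducible genes. The last 2, Psmc3ip and Psme3ip1, carry names derived from a proteasome gene but do not encode subunits.

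Central memory (CM) cells and effector/effector memory (E/EM) cells both came from female P14 mice, T cell receptor transgenic animals on the C57Bl/6 background, whose spleen and lymph node cells were given cognate peptide for 2 days. CM cells then spent 7 days in IL-15 and E/EM cells 7 days in IL-2, and CM cells were sorted for a high and E/EM cells for a low level of one surface protein. The model is therefore cells made in culture, not memory cells taken from an infected animal. Each kind was hybridised to 1 array of each of 3 types (SubA, SubB and SubC), so there were no replicates, no test was possible, and every value describes these 6 arrays.

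The proteasome degrades proteins tagged with ubiquitin. Its 20S core is a barrel of alpha and beta rings in which beta subunits cut the chain, and the 19S cap binds the tagged protein, removes ubiquitin and unfolds the chain with a ring of ATPases. Interferon induces 3 alternative catalytic subunits and the PA28 cap, which change the peptides offered on MHC class I, and lymphocytes carry much of this immunoproteasome without infection.

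A signal was used where it lay above the floor, a limit set for each array type from bacterial control probe sets (31.28 on SubA, 88.12 on SubB and 194.34 on SubC). Above it lay 66.9% of probe sets in CM and 69.1% in E/EM cells on SubA, but only 47.1% and 47.3% on SubC, so a smaller share of SubC probe sets could be used. Of the members, 59 probe sets lay above the floor on both arrays, and 51 of these were on SubA. All 10 named T cell identity genes were above it in both kinds of cells; Cd8a, for example, had signals of 5882.7 in CM and 5133.8 in E/EM cells, and Cd3e 6545.6 and 7095.9. Over the brightest probe set of each marker, signals summed to 5872.6 in CM and 4285.9 in E/EM cells for B cells (5 of 6 above the floor in both), to 464.3 and 711.8 for myeloid cells (4 of 8), to 1037.2 and 1299.2 for dendritic cells (6 of 8), and to 195.0 and 907.2 for helper T cells (1 of 2). Ighm alone gave 5306.6 and 3802.4 of the B cell sum. Its 3 measured probe sets disagreed, with log2 ratios of CM over E/EM signal from -0.78 to 0.48. The brightest probe sets of the myeloid markers Adgre1, Lyz2, Fcgr1 and Itgam lay under the floor in both kinds of cells. Another Fcgr1 probe set was above the floor in E/EM cells alone. The helper T cell markers went opposite ways, since Zbtb7b had 63.3 in CM and 857.9 in E/EM cells, above the floor in E/EM cells alone, and Cd4 had 131.7 and 49.3. In the dendritic list H2-Ab1 had 211.0 in CM and 516.5 in E/EM cells, while Cd209a had 329.2 and 242.5. Averaged over probe sets, the log2 ratio was above 0 for 3 of 6 measured dendritic genes and below 0 for 3. It was above 0 for 2 of 5 B cell genes and for 0 of 4 myeloid genes. The part of such cells in the values below was not tested, and in bulk RNA fewer cells of a type and less RNA per cell cannot be told apart.

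A stretch of promoter is shown for each of 5 genes to set the inducible catalytic subunits beside constitutive genes, with the bases just before the transcript start, 5′ to 3′ on the gene's strand, from RefSeq on GRCm38.p6. In Psmb8 (chr17:34198075-34198194, plus strand) the capitals mark a match to the interferon gamma activated site, TTCNNNGAA, which reads the same on both strands. In the 225 bases that lie between the divergent starts of Psmb9 and the peptide transporter gene Tap1 (chr17:34187331-34187555, minus strand) they mark a GC box, GGGCGG. In Psmb5 (chr14:54617996-54618055, minus strand), Psmb6 (chr11:70525297-70525356, plus strand) and Psmd9 (chr5:123228130-123228189, plus strand) they mark the core of the antioxidant response element, TGACNNNGC, a motif bound by the factor NRF1 that drives proteasome genes. In Psmd9 this core overlaps a GC box on the other strand.
Psmb8: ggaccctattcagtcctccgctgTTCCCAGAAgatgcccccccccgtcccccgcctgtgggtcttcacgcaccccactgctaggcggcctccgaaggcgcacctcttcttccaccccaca
Psmb9: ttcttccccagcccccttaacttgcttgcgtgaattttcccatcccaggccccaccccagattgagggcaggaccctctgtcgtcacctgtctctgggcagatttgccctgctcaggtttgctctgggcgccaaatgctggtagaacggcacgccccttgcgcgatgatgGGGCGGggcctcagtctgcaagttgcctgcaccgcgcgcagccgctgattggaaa
Psmb5: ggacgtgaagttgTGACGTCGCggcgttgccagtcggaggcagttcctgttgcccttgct
Psmb6: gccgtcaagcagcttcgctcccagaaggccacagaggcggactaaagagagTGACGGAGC
Psmd9: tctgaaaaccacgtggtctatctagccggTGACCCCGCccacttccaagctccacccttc

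Proteasome genes had nearly the same signal in CM and in E/EM cells. Of the 50 member genes, 46 could be given a log2 ratio (the CM signal divided by the E/EM signal, averaged over a gene's probe sets), and all 46 lay under 1.5-fold in either direction, where 76.0% of the 10946 named genes measured did. None of the 46 was at least 2-fold lower in CM cells, where 5.61% of all genes measured were, and none was at least 2-fold higher, where 2.73% were. At the 1.5-fold limit the member counts were also 0 and 0, against 13.9% of all genes lower and 10.1% higher. The 40 measured constitutive and accessory genes had a median of 0.05 and quartiles of -0.08 and 0.13. All named genes had a median of -0.003 and quartiles of -0.33 and 0.29. Above 0 lay 24 of the 40 genes, against 49.7% of all genes. An absolute log2 ratio under 0.2 was found for 34 of the 46 member genes (73.9%) and for 34.6% of all genes.

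**Figure D1:**
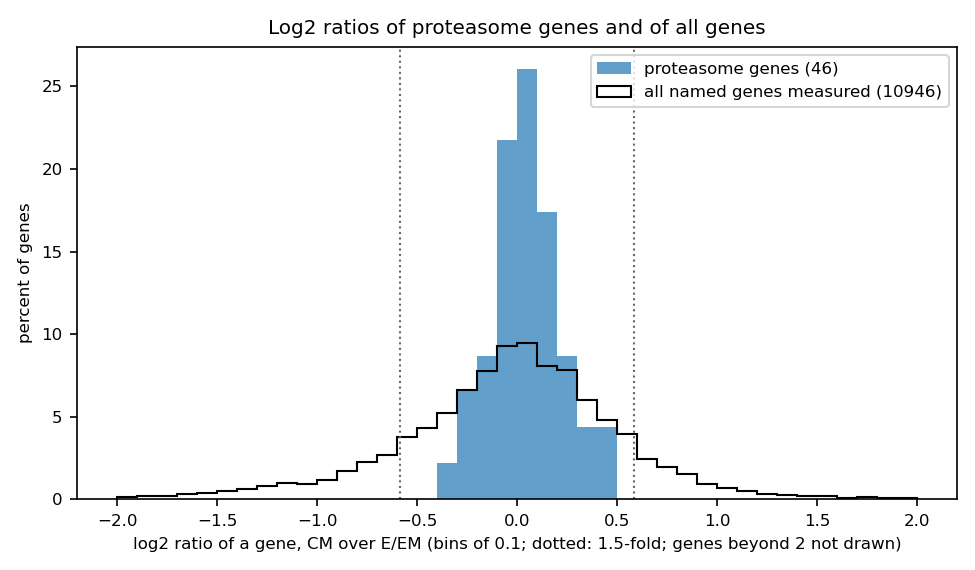
Percent of genes in each bin of 0.1 of the log2 ratio, CM over E/EM signal. The 46 measured member genes (filled, with Psmc3ip and Psme3ip1 among them) are set beside all 10946 named genes measured (line). The 106 genes beyond 2 in size are not drawn. The proteasome genes lie between -0.36 and 0.47, inside the dotted lines at 1.5-fold.

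Ratios scatter less at higher signals. The median absolute log2 ratio of all named probe sets was 0.51 under 2 times the floor and 0.30 from there on, so counts were also taken where both signals were at least 1000, a limit chosen after seeing the data. There 31 of 31 constitutive and accessory genes lay under 1.5-fold, against 83.5% of 3726 named genes, and 0 were at least 2-fold lower or higher, against 1.56% and 2.04%. Their quartiles were -0.04 and 0.13, and those of all genes so limited -0.18 and 0.30. Above 0 lay 21 of the 31 genes, with a median of 0.09. Of all genes so limited 57.0% lay above 0, with a median of 0.05, so bright genes in general leaned to CM cells.

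**Figure D2:**
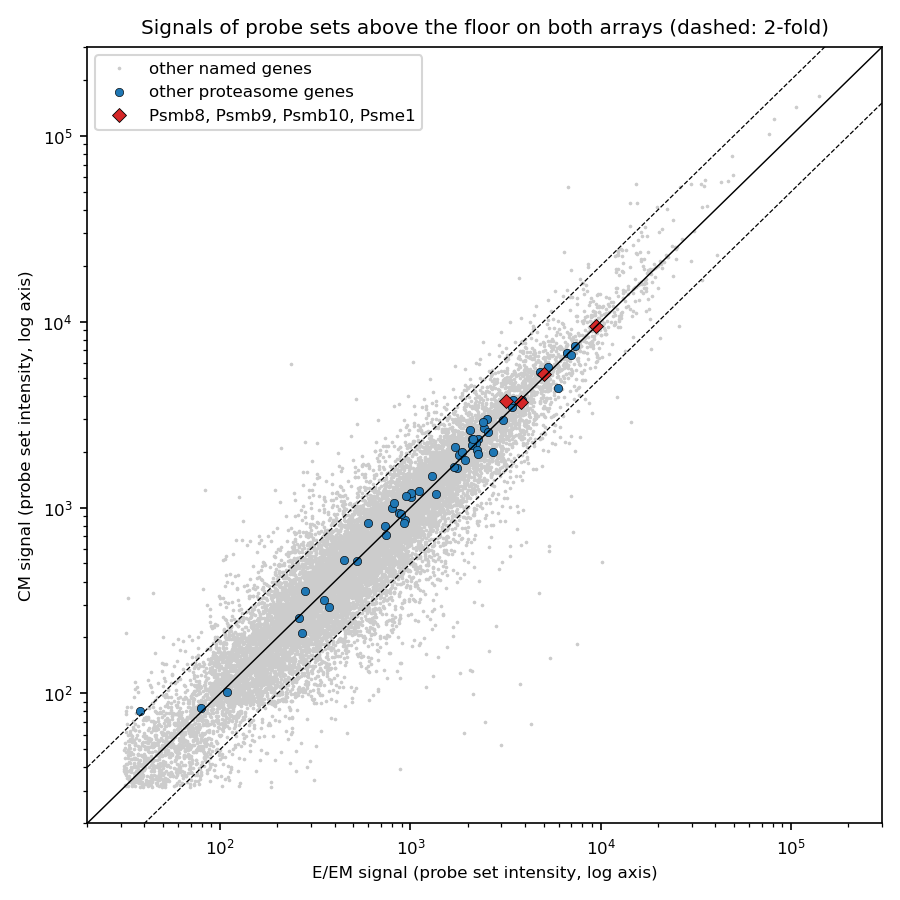
Signal of each probe set that exceeded the floor in both kinds of cells, CM on the vertical and E/EM on the horizontal axis, both logarithmic. Red diamonds are Psmb8, Psmb9, Psmb10 and Psme1, blue points the other member genes (Psmc3ip and Psme3ip1 included) and grey points other named genes. The proteasome probe sets follow the line of equal signal, and 1 weak Psmb5 probe set, with 80.7 in CM and 37.9 in E/EM cells, lies beyond the dashed 2-fold line.

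The inducible subunits were bright in both kinds of cells. Psmb8, the immunoproteasome's chymotrypsin-like subunit (LMP7), had signals of 9423.6 in CM and 9480.7 in E/EM cells and a log2 ratio of -0.01. A second Psmb8 probe set, on SubC, was above the floor in CM cells alone, with 218.6 against 93.9, a bound of at least 1.12-fold higher. Psmb9 (LMP2) had 3683.2 in CM and 3804.7 in E/EM cells, a log2 ratio of -0.05. Psmb10 (MECL-1), with 3740.7 and 3162.6, had the largest value of the inducible genes, 0.24, or 1.18-fold. Psme1, the alpha chain of the PA28 cap that opens the core, had 5210.9 in CM and 5005.6 in E/EM cells and a log2 ratio of 0.06. Its other probe set lay under the floor on both arrays. Psme2, the beta chain, had no probe set of its own. The brightest probe set that the annotation assigns to both Psme2 and its copy Psme2b had signals of 3064.5 and 2442.9, and this ratio of 0.33 cannot be given to either gene. The median of the 4 inducible genes was 0.02.

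Each inducible subunit replaces a constitutive one in the core, and all of these subunits lay under 1.5-fold. Psmb6, which Psmb9 replaces, had 2182.6 in CM and 2104.5 in E/EM cells, a log2 ratio of 0.05, so the difference Psmb9 minus Psmb6 was -0.10. Psmb7, which Psmb10 replaces, had 2328.3 and 2140.3, a ratio of 0.12, and Psmb10 minus Psmb7 was 0.12. For Psmb5, the counterpart of Psmb8, 3 probe sets disagreed in size. The brightest had 7414.0 in CM and 7300.3 in E/EM cells (0.02), another had 2986.3 and 2524.7 (0.24), and a weak one had 80.7 and 37.9 (1.09), its weaker signal only 1.21 times the floor. Their mean of 0.45 ± 0.56 (SD, 3 probe sets) rests on the weak probe set, since it was 0.13 with the floor doubled, and it was 0.67, past 1.5-fold, on SubA alone. Psmb8 minus Psmb5 was accordingly -0.46 with all probe sets and -0.14 with the floor doubled. Psmb11, the subunit of cortical thymic epithelium, lay under the floor in both, with 31.2 and 30.4 on SubB.

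**Figure D3:**
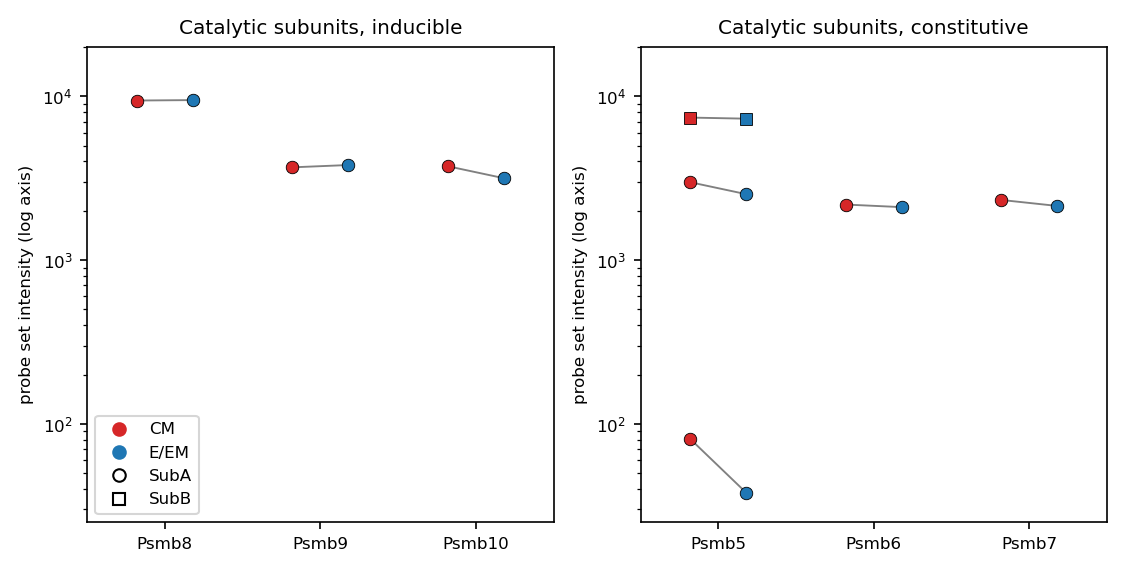
Probe set intensity, on a logarithmic axis, of the inducible (left) and constitutive (right) catalytic subunits, with CM in red left of E/EM in blue and a line joining the signals of 1 probe set; each point is 1 array. The lines are nearly level except for the weakest of the 3 Psmb5 probe sets, which had 80.7 in CM and 37.9 in E/EM cells.

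The remaining subunits of the 20S core were as close. Psma2, an alpha ring subunit, had signals of 6738.2 in CM and 6671.0 in E/EM cells, a log2 ratio of 0.01, and the 7 measured alpha genes ran from -0.07 for Psma1 to 0.17 for Psma6. The alpha rings form the gate of the barrel. Psma3 had -0.08 on SubA and 0.30 and 0.21 from 2 SubC probe sets, a mean of 0.15 ± 0.20 (SD, 3 probe sets) without a settled direction. Psma4 had 3808.6 and 3872.2 on SubA, while its SubC probe set was above the floor in CM cells alone, at least 1.73-fold higher. Psma8, an alpha subunit of the testis, was above the floor in E/EM cells alone, at least 1.13-fold lower in CM cells. The structural beta subunits Psmb1, Psmb2, Psmb3 and Psmb4 ran from -0.05 to 0.13. Psmb1 had 3454.2 in CM and 3412.3 in E/EM cells on its brightest probe set, and 2211.5 and 2209.1 on another. A dim Psmb4 probe set was above the floor in E/EM cells alone, at least 1.93-fold lower in CM cells, whereas the bright one had 5708.7 and 5299.6.

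The 19S base and lid showed a wider but still small range. Of the ATPases that unfold the substrate, Psmc3 had the highest value, 0.26 ± 0.09 (SD, 4 probe sets), and all 4 probe sets were above 0. Its brightest probe set had signals of 1472.1 in CM and 1295.1 in E/EM cells. Psmc6 was the lowest on one probe set and not on the other, with 4419.9 and 5926.6 on SubA (-0.42) but 936.6 and 869.9 on SubB (0.11). Psmc1 had 0.15 and Psmc2 -0.13, so the ring's members lay on both sides of 0. Psmc5 had -0.13, but 0.27 with the floor halved, so its direction is not settled. Psmc4 was above the floor in E/EM cells alone, with 20.8 in CM and 31.8 in E/EM cells, at least 1.02-fold lower. Psmd2, a large scaffold subunit of the base, was above the floor in CM cells alone, with 38.6 and 24.5, at least 1.23-fold higher. Both genes encode subunits of every 26S proteasome, and their probe sets here gave bounds only. The other scaffold, Psmd1, had -0.09. The ubiquitin receptor Psmd4 had 2548.7 in CM and 2544.7 in E/EM cells, a ratio of 0.002. A second Psmd4 probe set, on SubC, was above the floor in CM cells alone and at least 1.34-fold higher.

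Of the 8 lid genes, 4 were above 0 and 4 below. Psmd6 had 2601.4 in CM and 2051.1 in E/EM cells, a log2 ratio of 0.34, and Psmd7 had 2876.4 and 2403.7, a ratio of 0.26. These were the highest of the lid, and Psmd12 with 1188.9 and 1354.7 was the lowest, at -0.19. The lid's deubiquitinase Psmd14, which cuts off ubiquitin as the substrate enters, had 0.09. Psmd8 had 0.09, Psmd13 -0.03 and Psmd3 -0.10. Psmd11 had -0.17 and 0.13 from its bright probe sets, and a further, dim probe set was at least 3.57-fold higher in CM cells, with 111.7 against 26.8. That is the largest bound among the members. Its direction is that of the brightest Psmd11 probe set (0.13) and not of the other bright one (-0.17), and both of those are far smaller in size.

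**Figure D4:**
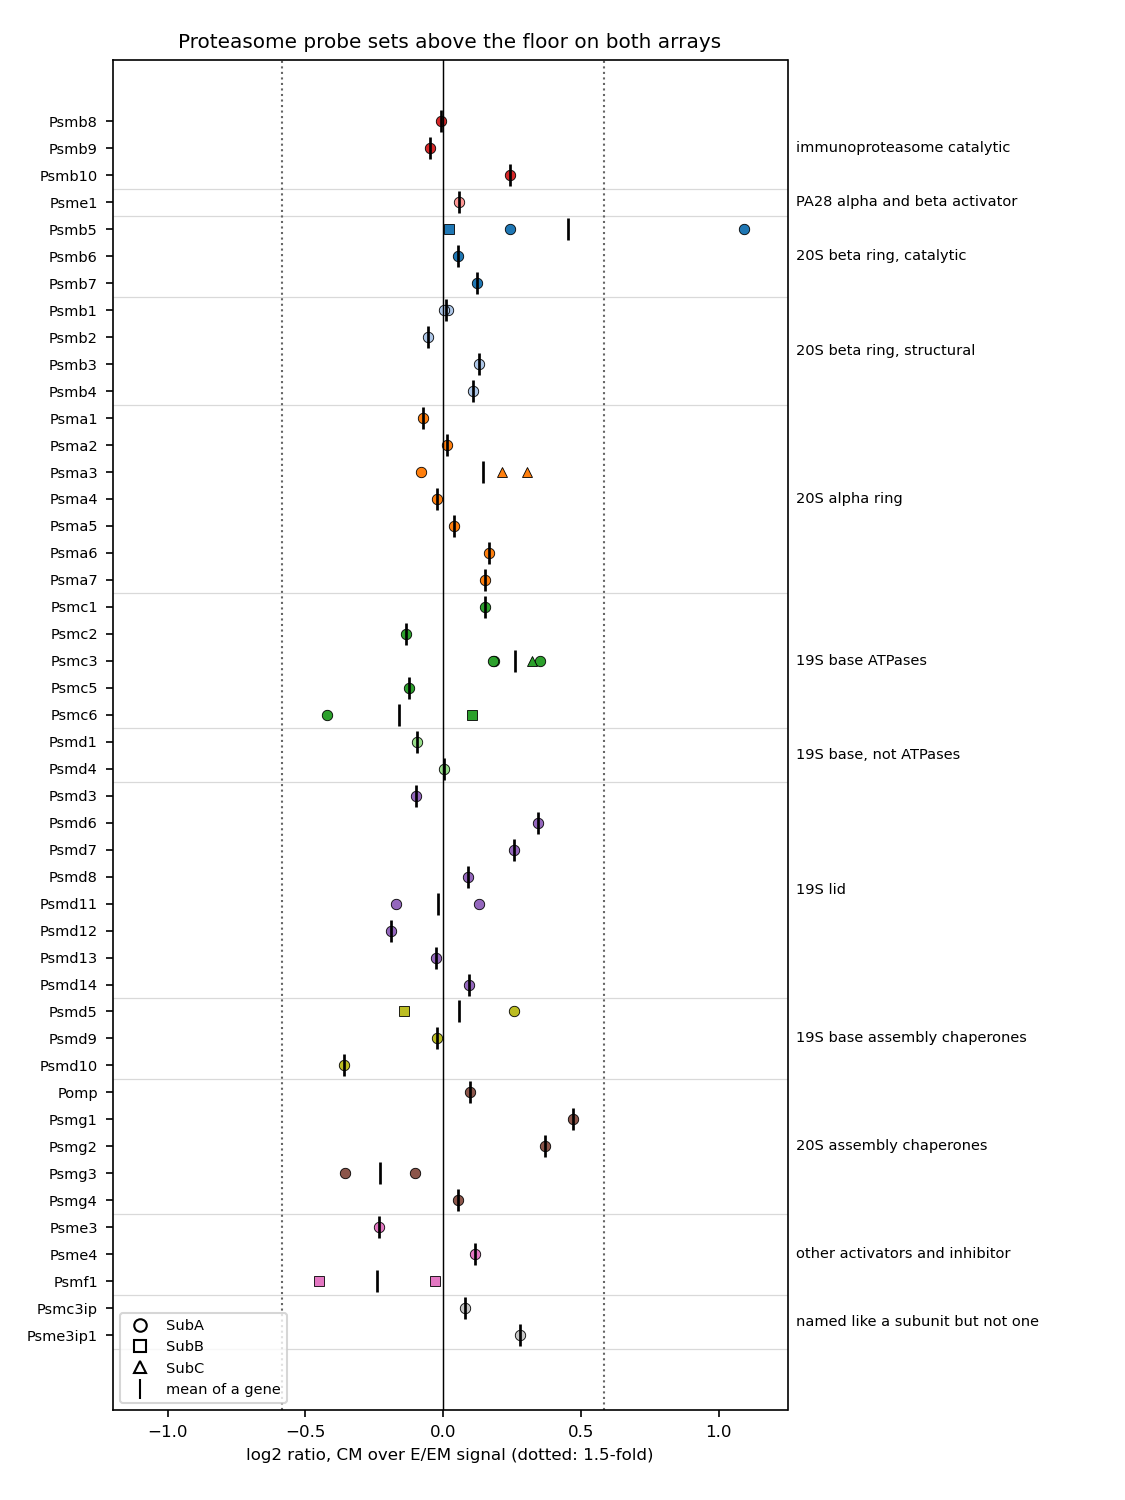
Log2 ratio (CM over E/EM) of each member probe set that exceeded the floor in both kinds of cells, by gene and role, with the array type as the symbol and a bar at each gene's mean; dotted lines mark 1.5-fold. Apart from the weak Psmb5 probe set at 1.09, every probe set lies between -0.45 and 0.47.

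Assembly factors held the highest and the lowest gene values as averaged here, an order that other settings changed. Psmb5 was above Psmg1 with quantile normalization (0.49 against 0.45), on SubA alone and without shared probe sets, and with the brightest probe set per gene Psmf1 (-0.45) and Psmc6 (-0.42) were below Psmd10. Psmg1 and Psmg2 form a dimer that gathers the alpha ring. Psmg1 had signals of 828.9 in CM and 597.8 in E/EM cells, a log2 ratio of 0.47 or 1.39-fold, the highest of the 46 genes in the values reported. Psmg2 had 1062.3 and 823.1, a ratio of 0.37. Of the pair that acts in the same step, Psmg3 had -0.23 ± 0.18 (SD, 2 probe sets) and Psmg4 0.05. Pomp, which helps beta subunits to join and is degraded as the core matures, had 3661.2 in CM and 3419.5 in E/EM cells, a ratio of 0.10. Among chaperones of the base, Psmd10 (gankyrin) had 210.6 and 270.4 and the lowest gene value, -0.36, while Psmd5 had 0.06 ± 0.28 (SD, 2 probe sets) and Psmd9 -0.02. Psmg1, Psmg2 and Psmd10 rest on 1 measured probe set each, and the median SD between probe sets of a gene was 0.32 over all named genes, so differences of this size lie near that technical spread.

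Among other caps and regulators, Psme3, the nuclear PA28 gamma, had 1932.2 in CM and 2270.6 in E/EM cells, a log2 ratio of -0.23. Psme4 (PA200) had 0.12. Psmf1, named for inhibition of the 20S core (PI31), had 5 probe sets that disagreed. The brightest had 1994.3 and 2725.5 (-0.45), another had 253.0 and 258.4 (-0.03), and 2 were above the floor in CM cells alone, at least 1.33-fold and 1.43-fold higher. The Psmf1 mean of -0.24 was 0.09 with the floor halved, so its direction is not settled. Psmc3ip, a recombination cofactor, had 0.08, and Psme3ip1, a partner of PA28 gamma, had 0.28.

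Probe sets of the same gene were a check on these values. Of the 9 member genes with at least 2 measured probe sets, 5 had a single sign and 4 (Psma3, Psmc6, Psmd5 and Psmd11) had both. The share of single-sign genes over all named genes is not given here, so this count is no measure of agreement. The median SD of the 9 genes was 0.21, against 0.32 over 4094 named genes. Of 58 member probe sets at 2 times the floor or more, 0 reached 1.5-fold, and their median absolute log2 ratio was 0.12, against 0.30 for all named probe sets so limited. Altogether 11 of the 59 measured probe sets carry a suffix that can mark sequence shared with other transcripts, and they are called shared here. RefSeq lists pseudogenes for Psma5, Psmb5, Psmb6 and Psmb7, so signal of a copy cannot be separated from that of these genes.

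The motifs of the printed promoters were counted in windows of 250 bases before to 50 after a start, which were found for 43 of the genes (Psme2 included). These genes had 47 windows, and a gene was counted if any of its windows matched. Shares of genes and shares of windows are therefore in unlike units. A GAS match was in the windows of 3 of these genes (Psmb8, Psmd2 and Psmg1), 6.98%, and in 8.30% of 32851 RefSeq windows. The interferon-stimulated response element, GAAA, any 2 bases and GAAA on either strand, was in 5 genes (11.6%) and in 3.44% of windows. The 5 were Psme1, with its match 10 to 19 bases after the start, and the constitutive or accessory genes Psmd4, Psmd9, Psmb3 and Psmg4. The ARE core was in 6 genes (14.0%) and 12.4% of windows. The 6 were Psmb5, Psmb6, Psmd9, Psme4, Psmd12 and Psmc6, whose log2 ratios of 0.45, 0.05, -0.02, 0.12, -0.19 and -0.16 lay on both sides of 0. A GC box was in 25 genes (58.1%) and 35.7% of windows. A match is a description of letters and not of binding.

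The rest of the pathway was close to 0 in places and not in others. Of 12 measured subunits and partners outside the name rule, 1 was at least 1.5-fold higher in CM cells and 0 lower, where 10.1% of all named genes measured were higher and 13.9% lower, with a median of 0.06. A count this small is near those shares. That gene was the ubiquitin shuttle Ubqln2, with 485.3 in CM and 276.4 in E/EM cells on its brightest probe set and a log2 ratio of 0.63 ± 0.26 (SD, 2 probe sets). Ubqln4 had 0.33, the small lid subunit Sem1 0.31 and the proteasome-bound deubiquitinase Usp14 -0.29 ± 0.54 (SD, 2 probe sets). In the list of ubiquitin genes, activating enzymes and the VCP unfoldase, 5 of 10 genes had a probe set with that single symbol, all 5 were measured and 0 passed 1.5-fold, with a median of -0.24. Nsfl1c, a VCP cofactor, had -0.53, Vcp -0.34 ± 0.22 (SD, 3 probe sets), the ubiquitin-activating enzyme Uba6 -0.24 and the VCP cofactor Ufd1 0.24.

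The genes of the NRF1 route, by which cells replace inhibited proteasomes, had 1 of 7 measured members at least 1.5-fold lower in CM cells, 0 higher, and a median of -0.14, where 13.9% of all genes were lower and 10.1% higher, so the count is near the share of all genes. Nfe2l1, which encodes NRF1, had 609.8 in CM and 840.3 in E/EM cells on its brightest probe set and a log2 ratio of -0.49 ± 0.03 (SD, 2 probe sets). Its DNA-binding partner Mafg, with 1007.1 and 1993.6, had -0.84 ± 0.49 (SD, 3 probe sets). Maff had -0.34, and Ngly1, the enzyme that strips sugars from NRF1, 0.20.

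Interferon response and class I loading genes had a median of 0.01 over 21 measured genes, of which 2 were at least 1.5-fold lower in CM cells and 3 higher, against 13.9% and 10.1% of all genes. The share of this list within 1.5-fold, 76.2%, was close to the 76.0% of all genes. Irf8, an interferon-regulated transcription factor, had 251.1 in CM and 1261.7 in E/EM cells, a log2 ratio of -2.33. The peptide-trimming enzyme Erap1 had 576.7 and 259.2, a ratio of 1.15. Pdia3, a chaperone of peptide loading, had -0.69, and the type I interferon receptor chain Ifnar1 0.63 ± 0.47 (SD, 2 probe sets). Irf1, an activator of Psmb9 and Tap1, and Tap1 itself were chosen with their values known. Irf1 had 1526.3 in CM and 1661.9 in E/EM cells, a ratio of -0.12. Tap1 had 0.04 ± 0.44 (SD, 2 probe sets), beside -0.05 for Psmb9, with which it shares the promoter printed above.

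**Figure D5:**
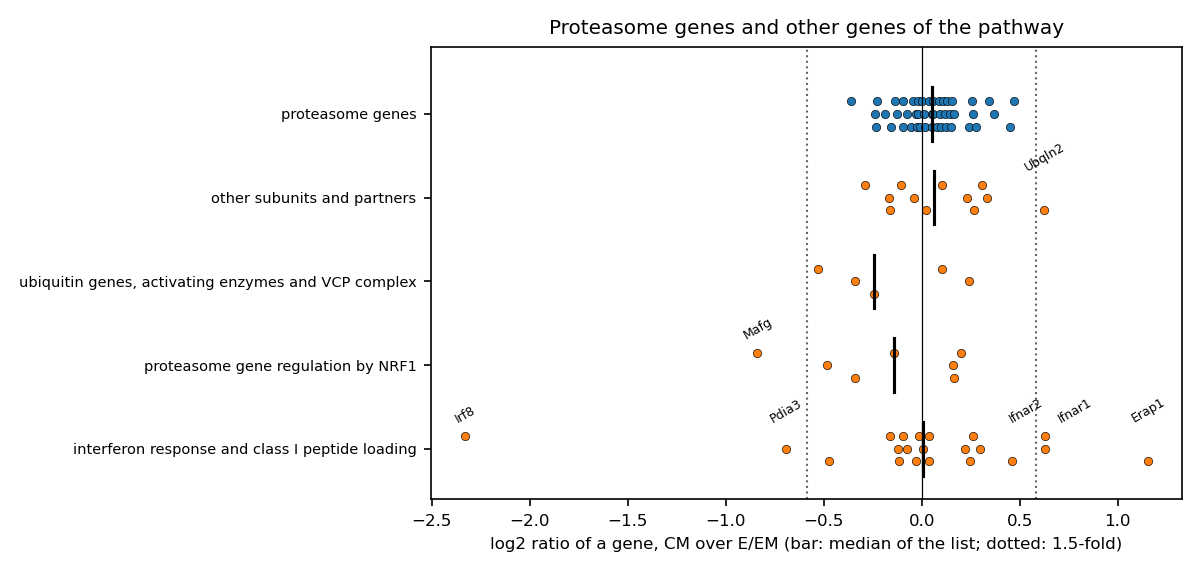
Log2 ratio (CM over E/EM) of the 46 measured member genes (blue, with Psmc3ip and Psme3ip1 among them) and of the measured genes of 4 other lists (orange). A bar marks each list's median and dotted lines mark 1.5-fold. No proteasome gene passes 1.5-fold, whereas Irf8 at -2.33 and Erap1 at 1.15 pass 2-fold in the interferon and class I list.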

How the data were processed

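Total RNA of 2 kinds of cells was measured on 3 array types, 1 array each. The deposited tables hold linear intensities, 1 per probe set. The authors' upstream steps are not stated in the labels or the files. The trimmed mean of each array lies near 500, and the deposited intensity values were used without further normalization. Samples were grouped by title. Symbols were taken from the platform annotation held by GEO, and all 50 member symbols had the same RefSeq symbol by Entrez identifier. The 66 control probe sets of each table and probe sets with several symbols named no gene. The floor is the higher of an array pair's 90th percentiles over 15 bacterial poly-A controls. A gene above it in 1 kind of cells only has a bound, its signal over the floor. Spread is the SD over probe sets, which is technical. Counts used 2-fold and 1.5-fold rules, with no test and no p-value. The members and lists were chosen with earlier results of these data known, and every member could be named. Of the other lists, the 4 largest ratios were named. The calculations were tested on simulated data (Python 3.11.15, numpy 2.4.6, pandas 2.3.3).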

Additional observations from a re-analysis of the deposited data

How the results depend on the processing

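The medians of the constitutive and accessory genes (0.02 to 0.09) and of the inducible genes (0.003 to 0.10) stayed above 0 in every alternative. They moved by less than 0.051 and 0.161. These limits are the median SD between probe sets over all named genes, divided by the square root of the number of genes. The medians as reported, 0.045 and 0.025, were smaller than their limits, so their direction is not settled. The alternatives were quantile normalization, centring of each table, the floor halved, doubled or left out, the brightest probe set per gene, no shared probe sets, SubA alone, and no SubC. The inducible median hid opposite moves of single genes, since without a floor Psmb8 had 0.61 and Psme1 -2.02. Psmb6, Psmb7, Psmb9 and Psmb10 rest on 1 SubA probe set each, far above the floor. Only quantile normalization could therefore change Psmb9 minus Psmb6 and Psmb10 minus Psmb7, to -0.08 and 0.16, so their constancy elsewhere is no check. Psmb10 minus Psmb7 had no value without shared probe sets. The constitutive and accessory genes above 0 numbered from 21 of 40 with each table centred to 28 of 44 without a floor, against 24 of 40 as reported. With the floor halved the sign turned for Psma4 (0.52), Psmb1 (-0.15), Psmb4 (-0.69), Psmc5 (0.27), Psmd5 (-0.09), Psmd11 (0.67) and Psmf1 (0.09), as dim probe sets enter. A limit of 1000 on both signals was chosen after seeing the data. Constitutive and accessory genes at least 1.5-fold higher in CM cells numbered 1 on SubA alone, 1 without shared probe sets, 2 with the floor halved and 4 without a floor, against 0 as reported. Psmb8 and Psme1, which passed 1.5-fold without a floor, are not in these counts. Those at least 1.5-fold lower numbered 3 with the floor halved and 2 without a floor, and those past 2-fold 3 without a floor and 1 without shared probe sets. That 1 gene was Psmb5, whose weak probe set then stood alone at 1.09. Psmb8 minus Psmb5 was -1.10 without shared probe sets and 0.15 without a floor, where dim probe sets enter. Of 444 values recomputed for single genes, 19 moved by more than the probe set spread, over 11 genes. That spread was a gene's own SD, or the median SD of 0.32 over all named genes where 1 probe set was measured. Only 19 of the 46 measured genes had several probe sets. The value of any other gene could change only with quantile normalization or centring, so its constancy elsewhere is no check. With 1 array per group no replicate could be left out. No paired analysis was possible because each kind of cells has 1 array per array type. Signals near the floor limit the precision of Psmc4, Psmd2, Psma8 and Psmb11.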
